A study of Mus musculus with 12 samples.

Results

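The genes described here encode the nuclear-encoded subunits of oxidative phosphorylation. They were taken as the protein-coding genes of GENCODE M21 whose mouse symbols begin Ndufa, Ndufb, Ndufc, Ndufs or Ndufv plus a number, are Sdha to Sdhd, or begin Uqcr, Cox4 to Cox8, or Atp5. The rule found 83 of the 17416 genes of the table, 37 in complex I, 4 in complex II, 8 in complex III, 17 in complex IV and 17 in complex V. In the annotation 85 genes fit the rule, and Cox8c and another gene that also carries the name Atp5o were not analysed here. All 83 passed the filter on low counts, which kept 17111 genes. The rule takes in Ndufa4l2, Cox7a2l and Atp5s, which are not classed as core parts of their complexes, and leaves out subunits with other symbols such as Ndufab1 and Cyc1.

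Complexes I to IV of the inner mitochondrial membrane pass electrons from NADH and succinate to oxygen, and complexes I, III and IV pump protons. Complex V, the ATP synthase, uses the proton gradient to make ATP. Most subunits are read from nuclear genes, made in the cytosol and imported, while a few hydrophobic core subunits of complexes I, III, IV and V are encoded by mitochondrial DNA. Complex II is wholly nuclear-encoded. Neurons meet most of their energy demand by this route, and several complex IV subunits have tissue isoforms that replace the general form in heart and skeletal muscle, lung or testis.

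Lateral habenula, an epithalamic nucleus, was punched from slices of 500 µm of brains of C57BL/6 mice aged 9 weeks, and 12 RNA-seq libraries were made from 100 pg of RNA each. The stress-susceptible and the stress-resilient group had undergone social defeat, and the non-defeated group had not. Each group had 4 libraries. The labels do not say how many mice gave a punch or a library, so the p-values measure only the spread between these samples, which may be technical.

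Library totals ran from 33.3 M to 47.7 M reads (M, 1000000 reads). Libraries were amplified from very little RNA and reads carried no molecular identifiers. Of the 12 libraries, resilient 4, non-defeated 3 and non-defeated 4 correlated least with the others, with mean correlations of 0.933, 0.935 and 0.932, against 0.940 to 0.953 elsewhere. Endothelial and mural markers stood 2.31 log2 units above their means in resilient 4 (median of 7 genes), blood markers 2.51 in susceptible 1 (5 genes) and medial habenula markers 1.48 in non-defeated 3 (12 genes). The endothelial and mural markers summed to 268.2 CPM in resilient 4 and to 40.4 to 67.0 CPM in the other 11 libraries. The 9 lateral habenula markers were read in all libraries, summing to 1456 to 2483 CPM, with medians of -0.21 to 0.22 log2 units about their means. A letter in the titles, whose meaning is not given, is H for all non-defeated and for susceptible 1 and 2, and N for susceptible 3 and 4 and all resilient libraries, so it cannot be told apart from the group between resilient and non-defeated mice.

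Upstream sequences of 8 members are shown because these genes stand for the patterns reported here: Uqcrc1, Cox7c and Atp5g2 had the smallest p-values, Sdha and Uqcrc1 did not follow the joint movement of the subunit genes, Cox5b and Uqcr10 followed it closely, and Cox8a and Cox8b are a high and a low isoform of the same subunit. Each runs 5′ to 3′ on the gene's strand, from 200 bases before to 30 bases after the RefSeq start (GRCm38.p6). Capitals mark short cores searched on both strands, GCGCATGC for NRF1, CCGGAAG for ETS factors such as GABP and AAGATGG for YY1, factors known to bind promoters of respiratory chain genes.
Uqcrc1: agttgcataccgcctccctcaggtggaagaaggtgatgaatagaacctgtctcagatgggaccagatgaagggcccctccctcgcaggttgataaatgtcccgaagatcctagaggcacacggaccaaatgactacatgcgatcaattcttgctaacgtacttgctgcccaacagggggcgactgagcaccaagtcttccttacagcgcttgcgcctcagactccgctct
Sdha: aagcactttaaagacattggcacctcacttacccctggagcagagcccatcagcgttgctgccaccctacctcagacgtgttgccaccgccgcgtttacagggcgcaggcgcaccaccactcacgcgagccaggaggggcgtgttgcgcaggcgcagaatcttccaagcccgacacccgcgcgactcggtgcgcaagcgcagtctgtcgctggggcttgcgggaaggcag
Cox5b: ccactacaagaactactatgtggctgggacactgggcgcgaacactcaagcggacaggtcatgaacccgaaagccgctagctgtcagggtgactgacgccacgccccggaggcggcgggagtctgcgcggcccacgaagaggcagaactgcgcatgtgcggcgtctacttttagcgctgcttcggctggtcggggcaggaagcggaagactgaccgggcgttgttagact
Uqcr10: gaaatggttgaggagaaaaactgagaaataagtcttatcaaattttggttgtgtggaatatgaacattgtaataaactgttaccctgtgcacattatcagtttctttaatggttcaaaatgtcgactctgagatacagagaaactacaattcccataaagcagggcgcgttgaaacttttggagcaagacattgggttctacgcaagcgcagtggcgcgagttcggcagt
Cox7c: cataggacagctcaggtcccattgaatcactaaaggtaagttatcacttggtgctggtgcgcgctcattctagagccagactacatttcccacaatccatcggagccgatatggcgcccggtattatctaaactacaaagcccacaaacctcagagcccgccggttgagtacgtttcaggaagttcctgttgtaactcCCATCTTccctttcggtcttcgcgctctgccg
Atp5g2: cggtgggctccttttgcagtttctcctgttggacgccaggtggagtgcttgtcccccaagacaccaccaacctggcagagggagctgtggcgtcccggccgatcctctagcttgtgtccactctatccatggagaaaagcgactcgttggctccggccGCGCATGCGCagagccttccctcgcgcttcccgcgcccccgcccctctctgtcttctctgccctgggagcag
Cox8a: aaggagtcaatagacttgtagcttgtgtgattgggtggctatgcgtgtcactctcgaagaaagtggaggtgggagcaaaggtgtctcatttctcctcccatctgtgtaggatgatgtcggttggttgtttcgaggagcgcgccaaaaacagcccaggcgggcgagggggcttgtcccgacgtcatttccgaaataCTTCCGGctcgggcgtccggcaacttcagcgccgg
Cox8b: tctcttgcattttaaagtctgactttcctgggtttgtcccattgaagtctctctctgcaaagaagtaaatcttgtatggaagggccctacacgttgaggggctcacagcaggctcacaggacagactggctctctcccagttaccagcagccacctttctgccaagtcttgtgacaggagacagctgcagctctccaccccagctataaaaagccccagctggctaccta
They lie at chr9:108936448-108936677 (plus strand) for Uqcrc1, chr13:74350211-74350440 (minus) for Sdha, chr1:36691287-36691516 (plus) for Cox5b, chr11:4704315-4704544 (minus) for Uqcr10, chr13:86046766-86046995 (minus) for Cox7c, chr15:102671018-102671247 (minus) for Atp5g2, chr19:7217587-7217816 (minus) for Cox8a and chr7:140900417-140900646 (minus) for Cox8b. In these windows Atp5g2 held 2 overlapping matches to the NRF1 core, 1 per strand, Cox8a held 1 ETS core and Cox7c 1 YY1 core, and the other 5 windows held none of the 3. Over 300 bases (250 before and 50 after the start), RefSeq promoters were matched for 66 members, 71 promoters in all. In this wider window Uqcrc1 held the NRF1 core too. The NRF1 core was in 14.1% of them, against 4.7% of the promoters of the table's protein-coding genes and 2.71% of all 32851 promoters. The ETS core was in 22.5%, against 15.3% and 8.86%, and the YY1 core in 14.1%, against 6.5% and 6.34%. Promoters were matched for only 4 low isoform genes, and these held none of the NRF1, ETS and YY1 cores. The other subunit promoters held them in 14.9%, 23.9% and 14.9%, so 4 promoters are too few to show a difference. A match is only a run of letters and was not tested for binding.

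Subunit genes were abundant, and their levels differed little between libraries. Of the 83, 71 averaged over 100 CPM (reads per 1000000 reads, with trimmed-mean scaling, TMM) and 7 under 10 CPM. Per kb of merged exon, the highest were complex IV and V genes: Cox8a at 902 CPM per kb, Cox6a1 at 703, Cox4i1 at 610 and Cox6b1 at 572, all subunits around the catalytic core of cytochrome c oxidase, and Atp5b, the catalytic beta subunit of ATP synthase, at 437. In complex III Uqcr10, a small subunit, led with 405 CPM per kb, in complex I Ndufa1, an accessory membrane subunit, with 330, and in complex II Sdhd, a membrane anchor, with 189. In 57 members the highest library was less than 2-fold above the lowest. Among genes of at least 10 CPM, the median SD of the log2 level over 12 libraries was 0.25 for 76 members and 0.37 for 9940 genes of all kinds. The sets were not matched for level above this floor, and the part of level in the difference was not tested.

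The general isoforms dominated their tissue isoforms in all groups. Per kb, Cox8a stood 715-fold above its muscle isoform Cox8b, Cox4i1 357-fold above the lung isoform Cox4i2, Cox7b 117-fold above the testis isoform Cox7b2 and Cox6b1 89.0-fold above the testis isoform Cox6b2. Cox6a1 stood 67.7-fold above the muscle isoform Cox6a2 and Cox7a2 26.1-fold above the muscle isoform Cox7a1. Ndufa4 is now counted with complex IV, but by their symbols Ndufa4 and its paralog Ndufa4l2 are in the complex I figures here. Ndufa4 stood 97.3-fold above Ndufa4l2. The c subunit of the ATP synthase ring is encoded by 3 genes whose mature proteins are identical. Atp5g3 gave 64.8 ± 1.08% of their summed CPM per kb in susceptible, 63.7 ± 2.12% in resilient and 64.2 ± 2.15% in non-defeated libraries (SD, n = 4 each), which differed by less than their spread. Atp5g2 gave 17.5 ± 0.654% in susceptible, 15.0 ± 2.45% in resilient and 18.2 ± 1.43% in non-defeated libraries, and Atp5g1 gave 17.7 ± 0.649% in susceptible, 21.3 ± 4.43% in resilient and 17.5 ± 1.76% in non-defeated libraries (SD, n = 4 each). These shares were not tested.

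**Figure D1:**
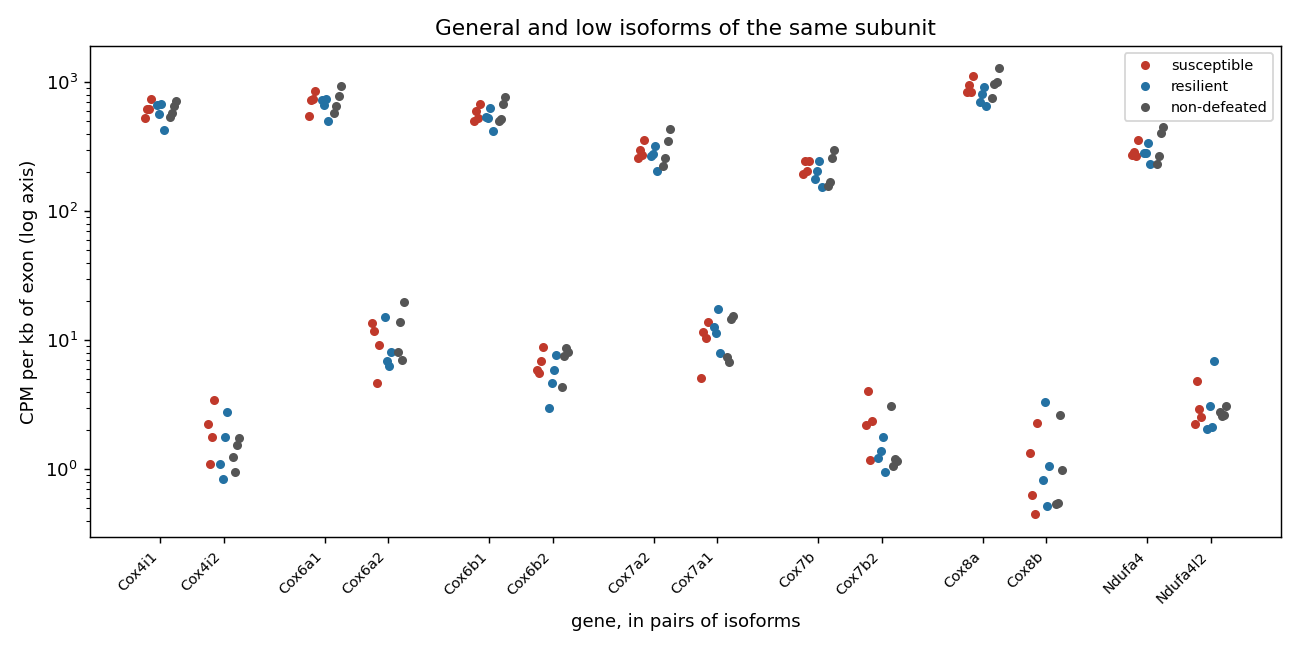
Level in CPM per kb of exon (log axis) of 7 pairs of isoforms, the general form left and the low form right in each pair; each point is 1 library, coloured by group. The low forms lay below the general forms in all 12 libraries, with group levels overlapping for each gene shown.

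The subunit genes varied together from library to library, within as well as between groups. In non-defeated 4, 72 of 83 members stood above their own mean over 12 libraries, and 46 had their highest level there. In resilient 4, 76 of 83 stood below their mean, and 52 had their lowest level there. Both libraries were among those that correlated least with the others, and the shares of all genes with their highest or lowest level there were not determined. The numbers below their mean were 74, 17, 58 and 15 of 83 in susceptible 1 to 4, 32, 41, 14 and 76 in resilient 1 to 4 and 72, 72, 11 and 11 in non-defeated 1 to 4, where 45.8% to 53.1% of all genes stood below theirs. The non-defeated group thus held 2 libraries low and 2 high, and no group stood apart.

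The median log2 deviation over the 83 members was -0.15, 0.07, -0.04 and 0.16 in susceptible 1 to 4. It was 0.10, 0.00, 0.11 and -0.38 in resilient 1 to 4 and -0.25, -0.14, 0.20 and 0.38 in non-defeated 1 to 4. The extremes were 1.69-fold apart, and the pooled SD within groups was 0.23. Resilient 4 was the lowest library for the median of each complex, and non-defeated 4 was the highest for complexes I, III, IV and V. Complex II was highest in resilient 1, at 0.45, and stood at 0.10 in non-defeated 4. All 83 genes together took 2.01% to 2.33% of reads in susceptible, 1.99% to 2.38% in resilient and 1.94% to 2.66% in non-defeated libraries.

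**Figure D2:**
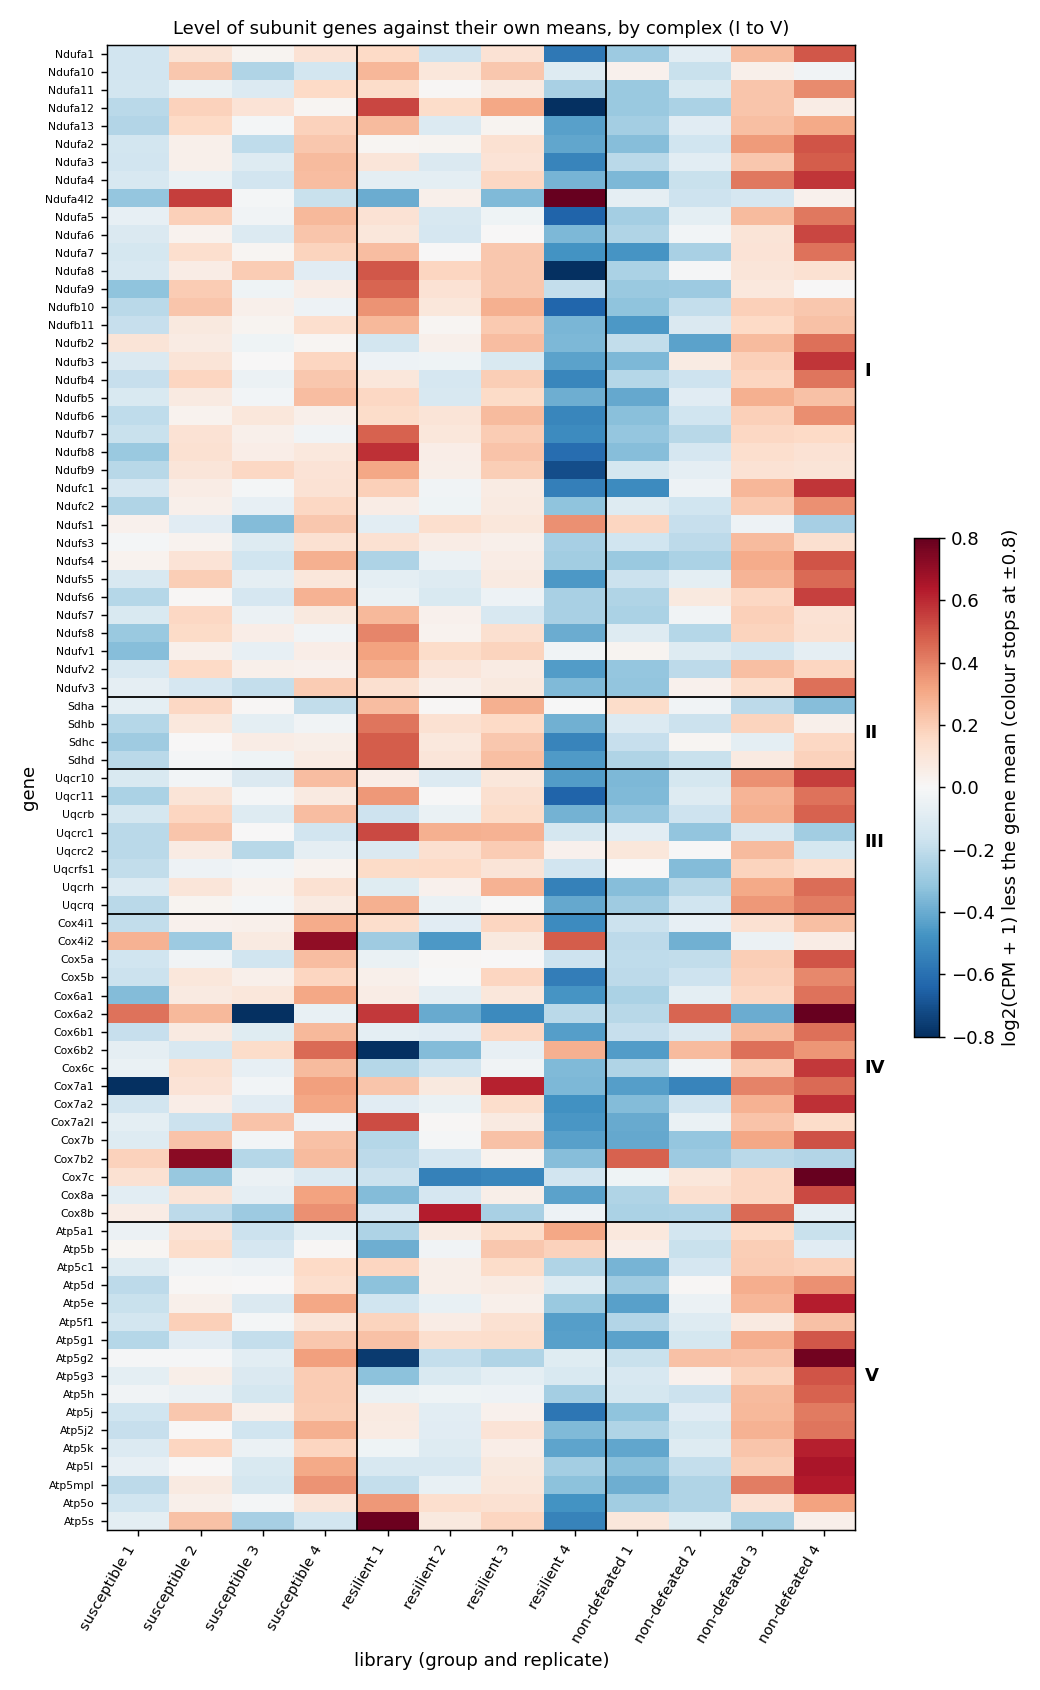
Level of all subunit genes but 1 (rows, by complex I to V) in each of the 12 libraries (columns, by group), as log2(CPM + 1) less the gene's mean. Non-defeated 4 is high and resilient 4 low for most rows, and a few rows such as Sdha, Ndufs1, Atp5a1, Atp5b and Uqcrc1 do not follow.

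Members differed in how closely they followed this movement, and most of the long subunits followed it little. The correlation of a member with the median of the others over the 12 libraries had a median of 0.865, or 0.876 after removal of group means, and exceeded 0.9 in 32 members. It was 0.961 for Uqcr10 and 0.969 for Cox5b, small structural subunits of complexes III and IV. It was -0.475 for Ndufs1, the largest iron-sulfur subunit of complex I, -0.398 for Atp5a1 and -0.141 for Atp5b, the alpha and beta subunits of the ATP synthase head, -0.361 for Sdha, the flavoprotein of succinate dehydrogenase, and 0.006 and 0.146 for Uqcrc2 and Uqcrc1, the core proteins of complex III. Among the 76 members of at least 10 CPM, the 11 with a longest coding sequence of at least 1000 bases had a median correlation of 0.144 and the 65 shorter ones of 0.899. The long ones ranged up to 0.618 for Ndufa9 and 0.888 for Ndufv3, and among members under 10 CPM the short Ndufa4l2 had -0.405. The Spearman correlation of this value with coding length was -0.633 (n = 76). After removal of group means, the correlation with the others was 0.391 for Uqcrc1, 0.83 for Ndufa9 and 0.903 for Ndufv3. It was 0.03 for Uqcrc2, -0.139 for Atp5b, -0.32 for Sdha, -0.37 for Atp5a1 and -0.461 for Ndufs1. These classes were chosen after the values were seen, all points share the same 12 libraries, and the part of transcript length or RNA quality was not tested.

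Cox5b and Sdha show this library by library. Cox5b stood at 359, 430.5, 415 and 455 CPM in susceptible, 416, 403, 456 and 275 CPM in resilient and 349, 360, 460 and 528 CPM in non-defeated libraries 1 to 4. Sdha stood at 667, 791, 709 and 614 CPM in susceptible, 834, 708, 858 and 702 CPM in resilient and 778, 691, 608 and 555 CPM in non-defeated libraries 1 to 4. Non-defeated 4 was the highest of the 12 for Cox5b and the lowest for Sdha, and the groups overlapped for both genes. Other lists matched these extremes in part. Mitochondrial ribosomal protein genes (77) had their lowest median, -0.36, in resilient 4 and their highest, 0.25, in resilient 1. Cytosolic ribosomal protein genes (77) had medians of -0.23 to -0.21 in the 4 resilient libraries, below the other 8 libraries, and their highest, 0.63, in non-defeated 4. In non-defeated 4, thalamus and choroid plexus markers (8 each) had their highest medians of the 12 libraries, 0.82 and 0.80. Astrocyte markers (6) had medians of 0.39, 0.18, -0.19 and -0.57 in non-defeated 1 to 4. Oligodendrocyte markers (6) had medians of 0.25, 0.14, -0.36 and -0.34 there. The part of these in the results was not tested. In bulk tissue, fewer cells of a type and less RNA per cell cannot be told apart.

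**Figure D3:**
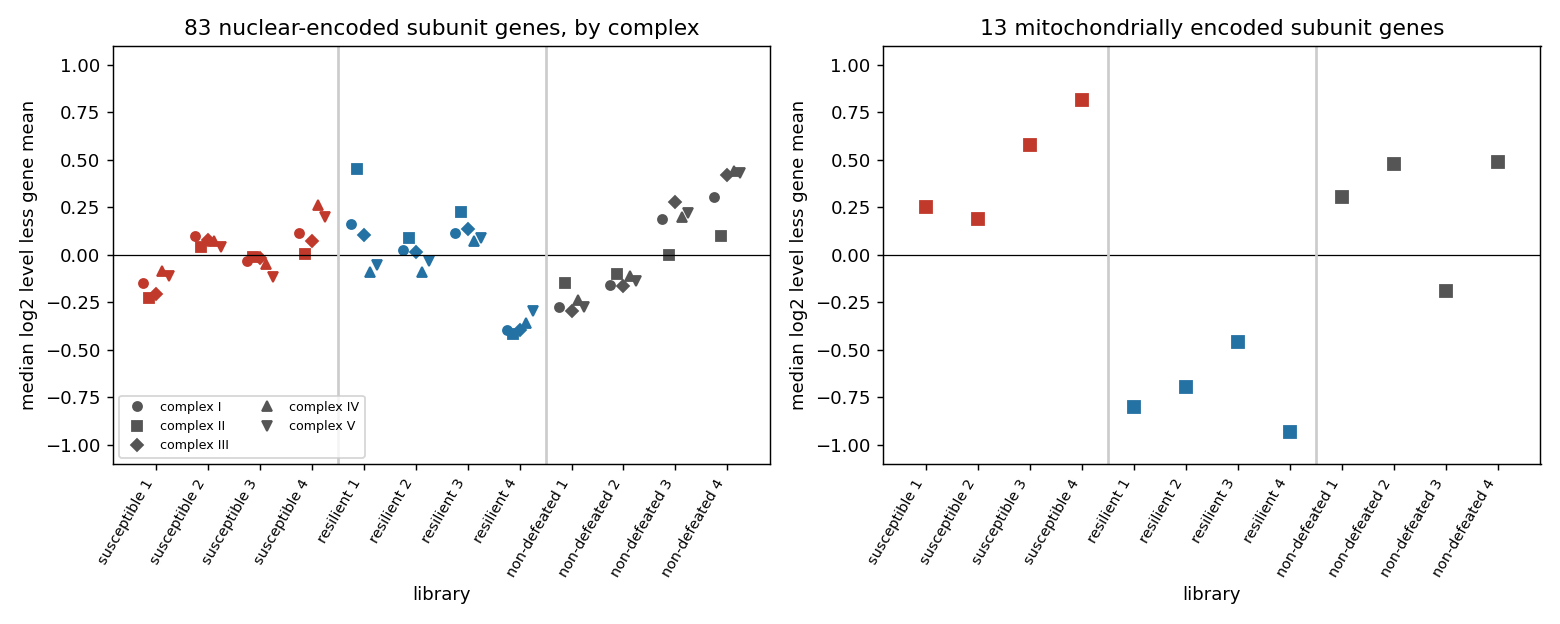
Median over genes of the log2 level less the gene mean, by library: left, the 83 nuclear-encoded genes by complex, right, the 13 mitochondrially encoded genes. On the left the spread within groups is as wide as that between them, and on the right the 4 resilient libraries, -0.93 to -0.46, lie below the other 8.

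Susceptible mice were set against non-defeated mice to ask which transcripts go with defeat followed by social avoidance. No subunit gene passed limma-trend at a Benjamini-Hochberg adjusted p of 0.05 (0 of 83, smallest adjusted p 0.998), where 0% of all 17111 genes passed. At an unadjusted p under 0.05 there were 0 members, against 3.54% of all genes, and the groups overlapped for all 83, against 2.22% of genes without overlap. The edgeR quasi-likelihood test, DESeq2 and limma voom also called 0 members. Fold changes are differences of log2(CPM + 1), which come out too small for genes of few reads. They lay below 0 for 51 of 83 members, with a median of -0.03, against 47.8% below 0 and a median of 0.01 for all genes. By complex, the medians were 0.00 for I, -0.02 for II, -0.07 for III, -0.05 for IV and -0.05 for V. Without non-defeated 3 and 4 the median over members was 0.19, and without the 3 libraries of lowest correlation 0.20.

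No single member separated the susceptible from the non-defeated libraries. The largest fold change by size was that of Cox7c, a small complex IV subunit, at -0.52 ± 0.30 (SE, unadjusted p = 0.105 by limma), and it was -0.17 without non-defeated 4. Cox4i2, at 1.76, 0.859, 1.40 and 2.72 CPM in susceptible and 0.973, 0.746, 1.21 and 1.37 CPM in non-defeated libraries 1 to 4, had the highest fold change, 0.34 ± 0.33 (SE). The groups overlapped for this hypoxia-responsive isoform too. Uqcrc1 had 0.17 ± 0.15 (SE).

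Resilient mice were set against non-defeated mice to ask what goes with defeat that is not followed by avoidance. Of the 83 members 0 passed an adjusted p of 0.05 by limma-trend (smallest 0.564), where 0.00584% of all genes passed. At an unadjusted p under 0.05 there were 3 members (3.61%), against 7.14% of all genes, namely Uqcrc1 with a higher level (4.27% of genes on that side) and Cox7c and Atp5g2 with a lower one (2.87%) in resilient mice. Fold changes lay below 0 for 53 of 83 members, with a median of -0.10, against 47.2% and a median of 0.02 for all genes. The smallest adjusted p in any of 27 alternative settings was 0.121, for Uqcrc1 without resilient 4. The median over members was 0.14 without non-defeated 3 and 4, 0.25 without the 3 libraries of lowest correlation and 0.00 without resilient 4, so its direction rested on these libraries. All 5 blood markers tested stood higher in resilient than in non-defeated libraries, with no overlap, summing to 1030 to 2071 CPM in resilient and 263 to 825 CPM in non-defeated libraries. Among all genes 3.66% had no overlap. Susceptible libraries summed to 871 to 5680 CPM, also above the non-defeated ones. The part of blood in the results was not tested.

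Uqcrc1 (chromosome 9, 108936633 to 108949623, GRCm38) encodes core protein 1 of complex III. It stood at 818, 691, 687 and 513 CPM in resilient libraries 1 to 4, against 533, 454, 518 and 466 CPM in non-defeated libraries 1 to 4 and 488, 659, 568 and 509 CPM in susceptible ones. The first 3 resilient libraries lay above all others, and resilient 4 lay within the non-defeated range. The log2 fold change against non-defeated mice was 0.44 ± 0.15 (SE), with an unadjusted p of 0.012 and an adjusted p of 0.564 by limma. It stayed between 0.35 and 0.57 over the 27 alternatives, all above 0.

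Cox7c (chromosome 13, 86044816 to 86046904) stood at 30.2, 23.2, 23.5 and 30.6 CPM in resilient libraries 1 to 4, against 33.4, 36.5, 38.4 and 99.9 CPM in non-defeated ones. All resilient libraries lay below all non-defeated ones, the only such member, where 1.68% of all genes had every resilient library below and 3.66% had no overlap either way. The log2 fold change was -0.78 ± 0.30 (SE, unadjusted p = 0.0206, adjusted p = 0.591 by limma). It was -0.43 without non-defeated 4, whose value was over 2-fold that of any other library. Cox7c has 3 near-identical copies elsewhere in the annotation (at least 95% identity over at least 80% of its coding sequence), among which reads may be split, so its level is uncertain.

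Atp5g2 (chromosome 15, 102662864 to 102672352), a c ring gene, stood at 59.4, 89.1, 86.0 and 95.1 CPM in resilient libraries 1 to 4, against 89.6, 120, 119 and 174 CPM in non-defeated ones. The groups overlapped only through non-defeated 1. The log2 fold change was -0.59 ± 0.21 (SE, unadjusted p = 0.0143, adjusted p = 0.574 by limma) and ranged from -0.73 to -0.36 over the alternatives. The other c ring genes had -0.31 ± 0.15 (Atp5g3) and -0.03 ± 0.21 (Atp5g1, SE). Atp5g2 has 2 near-identical copies and Atp5g1 has 1.

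**Figure D4:**
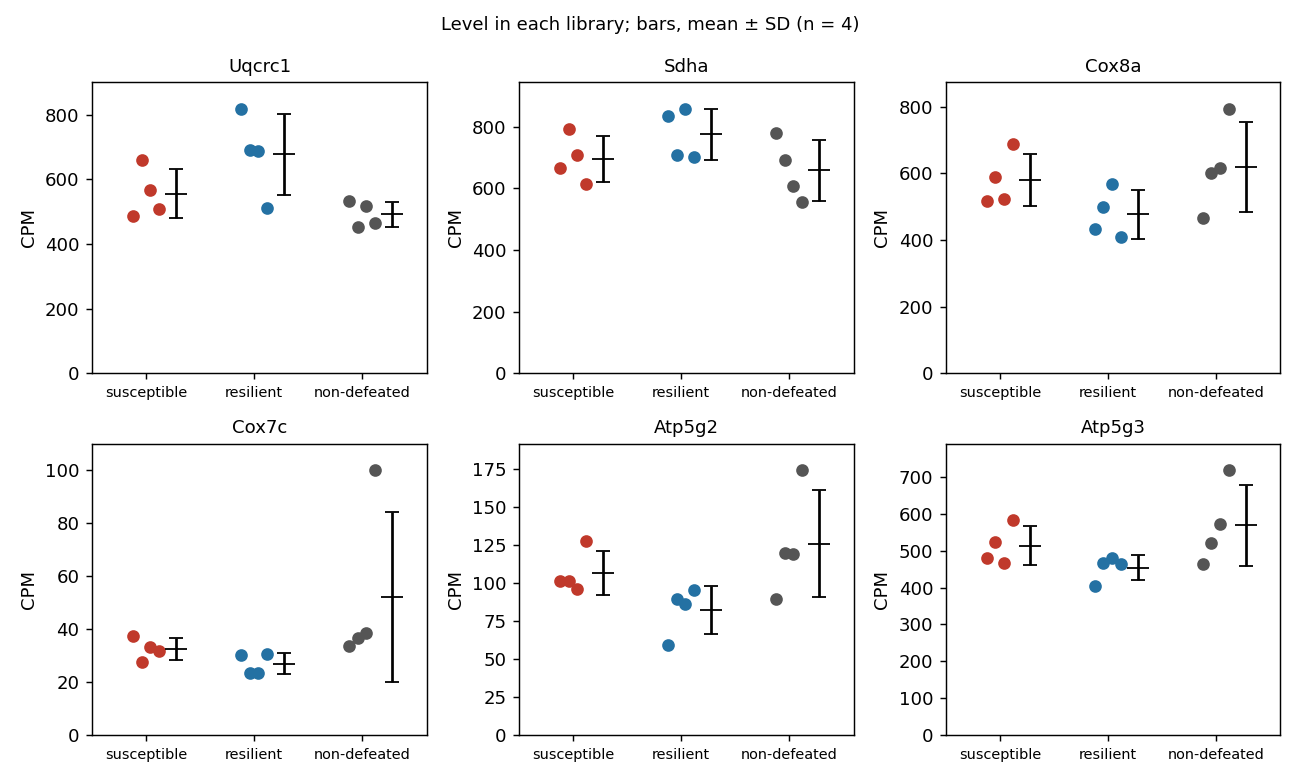
CPM of 6 members in each library, by group, with mean ± SD (n = 4) beside the points. Uqcrc1 is highest in resilient 1 to 3 and Sdha in resilient 1 and 3, Cox7c and Atp5g2 are highest in non-defeated 4, and none of the 6 passed the adjusted test.

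By complex the medians of resilient over non-defeated were -0.04 for I, 0.12 for II, -0.11 for III, -0.13 for IV and -0.18 for V. In complex I, 15 of 37 members lay above 0. Ndufv1, a core subunit of the NADH module, had 0.23 ± 0.13, Ndufa9, an accessory subunit near the quinone site, had 0.27 ± 0.17, and the accessory subunits Ndufb3 and Ndufs5 had -0.28 ± 0.18 and -0.26 ± 0.17 (SE). The 7 core matrix subunits had a median of 0.05 and the 29 accessory ones -0.10. In complex II all 4 lay above 0, from Sdhc at 0.08 ± 0.19 to Sdha at 0.24 ± 0.14 (SE). Without resilient 1 the median of complex II was -0.01, with 2 above and 2 below 0.

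In complex III the 3 core members lay above 0, with Uqcrc2 at 0.01 ± 0.14 and the Rieske protein gene Uqcrfs1 at 0.07 ± 0.14, and the 5 small ones below, down to Uqcr10 at -0.21 ± 0.20 (SE). In complex IV the 10 general isoforms all lay below 0, with a median of -0.19. Cox8a had -0.36 ± 0.17 and Cox6c -0.32 ± 0.165 (SE), while the 6 low isoforms ran from -0.40 to 0.17. In complex V the 4 small membrane subunits all lay below 0 (median -0.20), while Atp5a1 and Atp5b had 0.09 ± 0.14 and -0.00 ± 0.15 (SE). The median over the 10 general complex IV isoforms was 0.05 without non-defeated 3 and 4, with 7 above 0, and 0.19 without the 3 libraries of lowest correlation.

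These role classes were set after the values were seen. The 19 core subunits of complexes I, II, III and V had a median of 0.07, with 14 above 0, and the other 64 members had a median of -0.13, with 48 below 0. Fold changes correlated with merged exon length over the members (Spearman 0.356, n = 83, which share the same libraries). The 20 members with at least 1 near-identical copy had a median of -0.16 and the 63 without -0.05. Without non-defeated 3 and 4, the medians were 0.16 for the 19 and 0.13 for the 64. The part of transcript length in these differences was not tested.

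**Figure D5:**
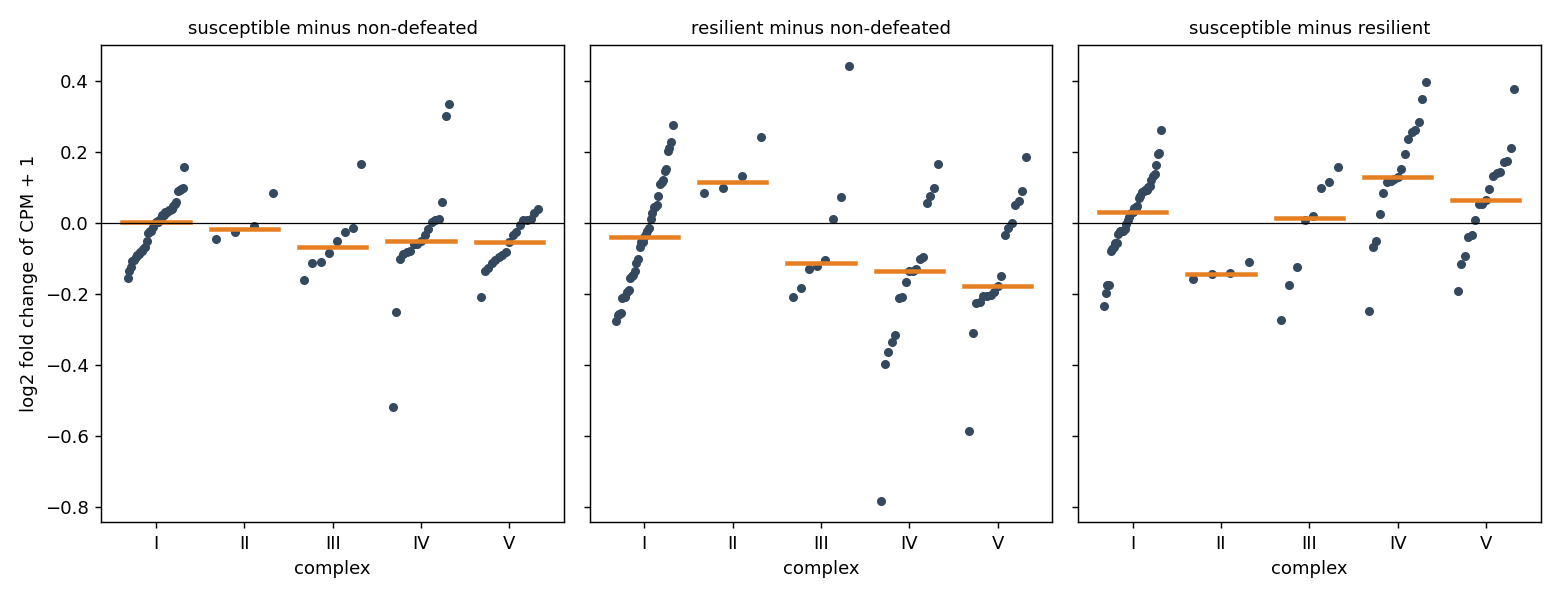
Log2 fold change of CPM + 1 of each member (points, sorted within each complex) with the median of the complex (bars), for the 3 comparisons. In resilient minus non-defeated the medians run from 0.12 in complex II to -0.18 in complex V, and no point passed the adjusted test.

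Susceptible mice were set against resilient mice to ask what differs between mice that avoid and mice that do not after the same defeat. Of the 83 members 0 passed an adjusted p of 0.05 by limma-trend (smallest 1), where 0.0468% of all genes passed, and at an unadjusted p under 0.05 there were 0, against 3.51% of all genes. DESeq2, the edgeR quasi-likelihood test and limma voom also called 0 members. Fold changes of susceptible over resilient lay above 0 for 53 of 83 members, with a median of 0.05, against 47.9% and a median of -0.02 for all genes. The medians were 0.03 for complex I, -0.14 for II, 0.01 for III, 0.13 for IV and 0.06 for V. Without resilient 4 the median over members was -0.03.

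In this comparison only Atp5g2 had no overlap between groups, with 101.1, 100.9, 95.9 and 128 CPM in susceptible libraries 1 to 4, all above the 59.4 to 95.1 CPM of the resilient ones. For 1.42% of all genes every susceptible library lay above every resilient one, and 2.45% had no overlap either way. Its log2 fold change was 0.38 ± 0.21 (SE, unadjusted p = 0.0927 by limma). Uqcrc1 and Ndufv1 followed by p, at -0.27 ± 0.15 and -0.23 ± 0.13 (SE). The 10 general complex IV isoforms all lay above 0, with a median of 0.14, or 0.03 with 7 above 0 without resilient 4. The 3 comparisons share libraries, so their values are not independent of each other.

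The 13 subunits encoded by mitochondrial DNA had larger median fold changes than the nuclear ones in both comparisons with resilient mice. In susceptible over non-defeated mice their median was 0.18, with 10 above 0 and 0 at an unadjusted p under 0.05 by limma. In resilient over non-defeated mice all 13 lay below 0, with a median log2 fold change of -0.96. All 13 had an unadjusted p under 0.05 by limma, against 7.14% of all genes, and 0 passed the adjusted test. In susceptible over resilient mice all 13 lay above 0, with a median of 1.23, and 5 passed by limma-trend, against 0.0468% of all genes. No gene of any kind passed with a pseudocount of 0.1, without the robust step, with only the groups compared, by edgeR, with the replicate block, or when any susceptible or resilient library was left out. With other size factors, no filter or the letter as a term 9 genes of any kind passed, and with no scaling 7. The summed CPM of the 83 nuclear genes over that of the 13 mitochondrial ones was 0.282, 0.345, 0.231 and 0.214 in susceptible libraries 1 to 4. It was 0.655, 0.576, 0.537 and 0.519 in resilient and 0.245, 0.230, 0.451 and 0.302 in non-defeated libraries 1 to 4. All resilient libraries lay above all others, also among libraries with the letter N. For complex IV alone resilient 4, at 0.174, lay below non-defeated 3, at 0.202. The summed CPM of the nuclear genes averaged 22124 ± 1857 in susceptible, 21889 ± 2658 in resilient and 22692 ± 3451 in non-defeated libraries (SD, n = 4 each). That of the mitochondrial genes averaged 85606 ± 20585 in susceptible, 38400 ± 4517 in resilient and 77290 ± 15406 in non-defeated libraries (SD, n = 4 each). By complex the mean ratio was 0.329 in susceptible, 0.715 in resilient and 0.393 in non-defeated libraries for complex I. It was 0.198 in susceptible, 0.430 in resilient and 0.247 in non-defeated libraries for complex III. In complexes IV and V, too, the resilient mean was the highest, at 0.252 and 0.979, against 0.138 and 0.522 in non-defeated libraries.

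Genes that build or feed the chain were read beside it. Of 14 complex I, 10 complex II and III, 18 complex IV and 4 complex V assembly factors tested, 0 passed an adjusted p of 0.05 in any comparison. Ttc19, an assembly factor of complex III, stood at 89.0 ± 14.7 CPM in resilient and 32.7 ± 13.1 CPM in non-defeated libraries (SD, n = 4 each; log2 fold change 1.49 ± 0.35, SE, adjusted p = 0.327 by limma). Its susceptible libraries 1 to 4 stood at 38.5, 30.2, 96.1 and 74.2 CPM. All 6 libraries with the letter N, at 72.7 to 106 CPM, lay above the 6 with the letter H, at 18.1 to 49.7 CPM. This gene was picked after its values were seen, and the share of all genes that split by letter in this way was not determined. Within the susceptible group, libraries with the letter H stood at 38.5 and 30.2 CPM and those with N at 96.1 and 74.2 CPM. With so few libraries per letter in that group, these values do not show that the level of this gene follows the letter. Between resilient and non-defeated libraries, group and letter cannot be told apart, and the part of the letter was not tested. Cox19, a copper-related complex IV assembly factor, stood at 29.5 ± 2.81 CPM in resilient and 40.1 ± 4.76 CPM in non-defeated libraries (SD, n = 4 each; -0.43 ± 0.18, SE).

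Of 18 genes of pyruvate oxidation and the citric acid cycle, 14 lay above 0 in resilient over non-defeated mice (median 0.19), and of 16 glycolytic genes 11 did (median 0.20), with 0 passing the adjusted test by limma in both lists, and 2 and 5 of them at an unadjusted p under 0.05, against 7.14% of all genes. Pdha1, a subunit of pyruvate dehydrogenase, had 0.43 ± 0.15 and Pfkl, a phosphofructokinase, 0.55 ± 0.17 (SE). Of 11 regulators 0 passed the adjusted test by limma, with 7 above 0, against 52.8% of all genes, and a median of 0.01. At an unadjusted p under 0.05 by limma, against 7.14% of all genes, there was 1 regulator, Ppargc1a. This coactivator, known to raise transcription of respiratory chain genes, stood at 93.8 ± 21.5 CPM in resilient and 61.1 ± 19.2 CPM in non-defeated libraries (SD, n = 4 each; log2 fold change 0.63 ± 0.26, SE). The 8 electron carrier genes and subunits with other symbols had a median of 0.01, with 6 above 0.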

How the data were processed

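Members and lists were chosen with earlier results of these data known. The submitters' processing notes name featureCounts, edgeR and GRCm38 (mm10), without versions. No source used here names an aligner or says whether strand was used, so reads of overlapping genes, which concern 29 members, cannot be separated. The authors headed the deposited columns as counts, but the values are CPM plus a constant of 0.006078. Less this constant, 100% of values were whole reads within 0.001 read (1 read was worth 0.0209 to 0.0300 CPM). The authors also deposited log2 ratios, a likelihood ratio score, its p-value and FDR over the 3 groups. Of the members, 0 had an FDR under 0.05 in the authors' deposited table, where the smallest p-value was 0.0111, for Cox7c.

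From there, limma-trend (limma 3.58.1, robust, R 4.3.3) was run on log2 of CPM with TMM scaling (edgeR 4.0.16) plus 1, with group means over all 12 libraries. filterByExpr (minimum count 10) left 17111 genes, over which p was adjusted (Benjamini-Hochberg). DESeq2 1.42.0, edgeR's quasi-likelihood test and limma voom on recovered reads were among 27 alternatives. The procedure was tested on simulated counts in which genes varied independently and the planted changes were larger than any fold change of a member here. That test does not show how well smaller changes in genes that move together would be found. Near-identical copies were sought with blastn 2.17.0 in GENCODE M21 transcripts. In each complex the text names the genes highest per kb, those with the smallest p in a comparison, isoform groups and those with the largest or smallest spread. Members named for their correlation with the others or within a role class, and genes of other lists, were chosen after their values were seen. Counts and medians cover all 83 members. The values of 1 member are not reported here.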

Additional observations from a re-analysis of the deposited data

Results flagged for a closer look

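The 4 libraries of each group were examined for 1 library far from the other 3 in the 50 members that the rule on named genes picks and in 6 medians, over all members and by complex. Of these 168 cases 4 stood out, where chance gives about 1 in 20. Cox7c in non-defeated 4 stood at 99.94 CPM, with the other non-defeated libraries at 33.40 to 38.45 CPM. Atp5g2 in susceptible 4 stood at 127.6 CPM, with the other susceptible libraries at 95.92 to 101.1 CPM. Atp5h, a stator subunit of ATP synthase, stood at 316.3 CPM in resilient 4 and at 367.4 to 372.4 CPM in the other resilient libraries. Cox7b2 stood at 1.665 CPM in non-defeated 1 and at 0.5718 to 0.6559 CPM in the other non-defeated libraries.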

How the results depend on the processing

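Under all 27 alternatives 0 of the 83 subunit genes passed the adjusted test in any comparison. The median over the members changed sign in 6, 4 and 2 of 27 for susceptible over non-defeated, resilient over non-defeated and susceptible over resilient mice. With 1 library left out it ran from -0.12 to 0.05, from -0.19 to 0.00 and from -0.03 to 0.11. For resilient over non-defeated mice it was 0.25 (0.2482) without the 3 libraries of lowest correlation and 0.14 (0.1351) without non-defeated 3 and 4, an alternative chosen after seeing the data. With voom weights it was 0.04 for susceptible and 0.03 for resilient over non-defeated mice. Within letter H, susceptible over non-defeated had a median of -0.08 (2 against 4 libraries), and within letter N susceptible over resilient had 0.10.

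Over all genes, DESeq2 called 23 genes for susceptible over non-defeated mice, where limma-trend called 0. For resilient over non-defeated mice limma-trend called 1. It called 2 with other size factors, no scaling, no filter or the stricter filter. The count was 0 without the robust step, with only the groups compared, by edgeR, with the replicate block, with the letter as a term, without the 3 libraries and without non-defeated 3 and 4. DESeq2 called 91, voom 8, and leaving out 1 library gave 0 to 9 (9 without resilient 4). For susceptible over resilient mice limma-trend called 8. It called 9 with other size factors, no filter or the letter as a term, 8 with the stricter filter and 7 with no scaling. The count was 0 with a pseudocount of 0.1, without the robust step, with only the groups compared, by edgeR and with the replicate block, 2 without the 3 libraries, 38 by DESeq2, 16 by voom and 0 to 10 with 1 library left out. The cause was not tested. Replicate numbers were not taken as pairs, since same-numbered libraries deviated together in only 3 of 12 pairs (correlations over 0.1 of a range from -0.194 to 0.127) and 3 of 12 libraries correlated best with their own number.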

Other observations

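Apart from Cox7c, the members with the widest range between libraries were low isoforms. Cox8b ranged from 0.161 to 1.19 CPM over the 12 libraries, with 6 reads in its lowest library, and Cox6a2 from 3.17 to 13.5 CPM. Atp5l had 8 near-identical copies in the annotation, more than any other member, so its reads may be divided among them.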
